A study of Mus musculus with 20 samples.

Results

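The kidney makes 2 calbindins, small calcium-binding proteins of the EF-hand family. S100g encodes calbindin-D9k and Calb1 encodes calbindin-D28k. Every probe set that the platform annotation assigned to S100g or Calb1 alone was taken, which gave 3 of the 12488 probe sets on the array, for 2 of the 8251 genes with a probe set of their own. S100g had 2 probe sets, 160918_at and 161835_at, and Calb1 had 1, 98133_at. No probe set named either gene together with another one. In the GRCm38.p6 RefSeq annotation S100g lies on chromosome X from 162961992 to 162964599 and Calb1 on chromosome 4 from 15881264 to 15906709.

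Both calbindins are found in the distal convoluted and connecting tubule, the nephron segments where calcium is taken back from the tubular fluid through the cell. Calcium enters these cells through the apical channel Trpv5, is carried across the cytosol by calbindin, and leaves at the blood side through the sodium-calcium exchanger Slc8a1 and calcium pumps. Both genes are known targets of the active form of vitamin D, which acts through the receptor Vdr. The kidney makes that hormone with the enzyme Cyp27b1 and breaks it down with Cyp24a1.

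The arrays measured kidney RNA of C57BL/6J mice in 4 groups of 5 arrays. Mutant Hyp mice were fed a low phosphate or a control diet, and so were normal mice. In Hyp mice the X-linked gene Phex is mutated, and they model X-linked hypophosphatemia, in which the kidney loses phosphate. Each array held a pool of RNA from 3 mice, so the spread given here is between pools. Each group had 3 arrays after 5 days on the diet (2 male, 1 female) and 2 arrays after 3 days (1 male, 1 female). The labels give no age, and they do not say whether Hyp females carried the X-linked mutation on 1 or both chromosomes.

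The deposited values are linear signal intensities. Their trimmed mean, computed here, was 500.254 to 500.309 on every array, so they appear to have been scaled to an equal value. The number of arrays limits the precision of the comparisons. The sample titles number the arrays 01 to 20, and they were grouped here into 6 sets by that number and by shared sex and duration: 01 to 04, 05 to 08, 09 and 10, 11 to 14, 15 to 18, and 19 and 20. Each set lies within 1 duration and 1 sex, so neither days on diet nor sex can be told apart from array set. Arrays 05 to 08, the females at 5 days, stood apart from the rest: their median Spearman correlations with the other arrays were 0.895 to 0.934, against 0.943 to 0.969 for the other 16 arrays, and their actin 3′ to 5′ signal ratios were 1.74 to 2.61, against 1.22 to 1.98. This set holds 1 array of each group. Phex itself was dim on all 20 arrays, with intensities of 28.0 to 106.3 on Hyp low phosphate, 11.5 to 39.2 on Hyp control, 25.9 to 88.8 on normal low phosphate and 19.1 to 67.6 on normal control arrays. The sources do not say where its probes lie relative to the mutation, so these values do not check the genotype labels.

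The S100g promoter is shown because S100g changed the most of the calbindin probe sets and its gene is a known target of a nuclear receptor. The 300 bases below come from RefSeq (GRCm38.p6, chrX:162964550-162964849, minus strand) and run from 250 bases before the annotated start to 50 bases after it. Capitals mark AGGTCA, a half-site motif of nuclear receptors, searched on both strands, and TATAAA, the TATA box motif, searched on the sense strand. No entry for Calb1 was matched in the promoter table.
S100g: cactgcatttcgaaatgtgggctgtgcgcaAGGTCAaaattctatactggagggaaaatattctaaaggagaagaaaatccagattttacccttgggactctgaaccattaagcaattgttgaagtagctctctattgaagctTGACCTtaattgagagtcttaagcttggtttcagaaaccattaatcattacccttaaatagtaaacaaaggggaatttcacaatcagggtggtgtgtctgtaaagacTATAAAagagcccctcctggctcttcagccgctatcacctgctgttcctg

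Counted with the first base of the annotated gene as 0, the first AGGTCA covers positions -220 to -215, and the second, read on the opposite strand as TGACCT, covers -107 to -102. At least 1 AGGTCA on either strand was found in 16.3% of 32851 mouse promoters of the same length, and 2 or more in 1.81%. The direct repeat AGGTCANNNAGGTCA was not found in this window on either strand and was in 2 of the 32851 promoters. TATAAA begins at the first base of the annotated gene, and 8.32% of promoters held it. A match is a string of letters, and no binding was measured.

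The first question was how the low phosphate diet affected the calbindins in Hyp mice. All 3 calbindin probe sets fell in Hyp kidneys on low phosphate diet relative to Hyp kidneys on control diet. S100g averaged 849 ± 299.8 on low phosphate diet and 3612 ± 1277.5 on control diet by its brighter probe set 160918_at (SD, n = 5 each), so the control mean was 4.25 times as high. Calb1 averaged 1815 ± 85.5 on low phosphate diet and 4191.5 ± 538 on control diet (SD, n = 5 each), a control mean 2.31 times as high. In whole-kidney RNA, fewer cells that express a gene and less of its RNA per cell cannot be told apart.

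By array, S100g (160918_at) had intensities of 636, 672 and 591 after 5 days on arrays 04, 08 and 10 and 1124 and 1224 after 3 days on arrays 14 and 18 in Hyp mice on low phosphate diet. In Hyp mice on control diet it had 2467, 3672 and 2194 after 5 days on arrays 03, 07 and 09 and 4677 and 5051 after 3 days on arrays 13 and 17. The highest low phosphate array, 1224, lay below the lowest control array, 2194, so the groups did not overlap.

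The second S100g probe set, 161835_at, gave 387, 602 and 373 after 5 days and 562 and 619 after 3 days in Hyp mice on low phosphate diet. In Hyp mice on control diet it gave 938, 2323 and 1105 after 5 days and 1715 and 2051 after 3 days. Its groups did not overlap either, with the low phosphate arrays at 619 and below and the control arrays at 938 and above.

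Calb1 (98133_at) had 1895, 1720.2 and 1749 after 5 days and 1800.4 and 1912 after 3 days in Hyp mice on low phosphate diet. In Hyp mice on control diet it had 3646, 4315.5 and 3609.6 after 5 days and 4658.5 and 4728 after 3 days. The low phosphate arrays of both durations thus lay between 1720.2 and 1912, and the control arrays all lay at 3609.6 or above.

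**Figure D1:**
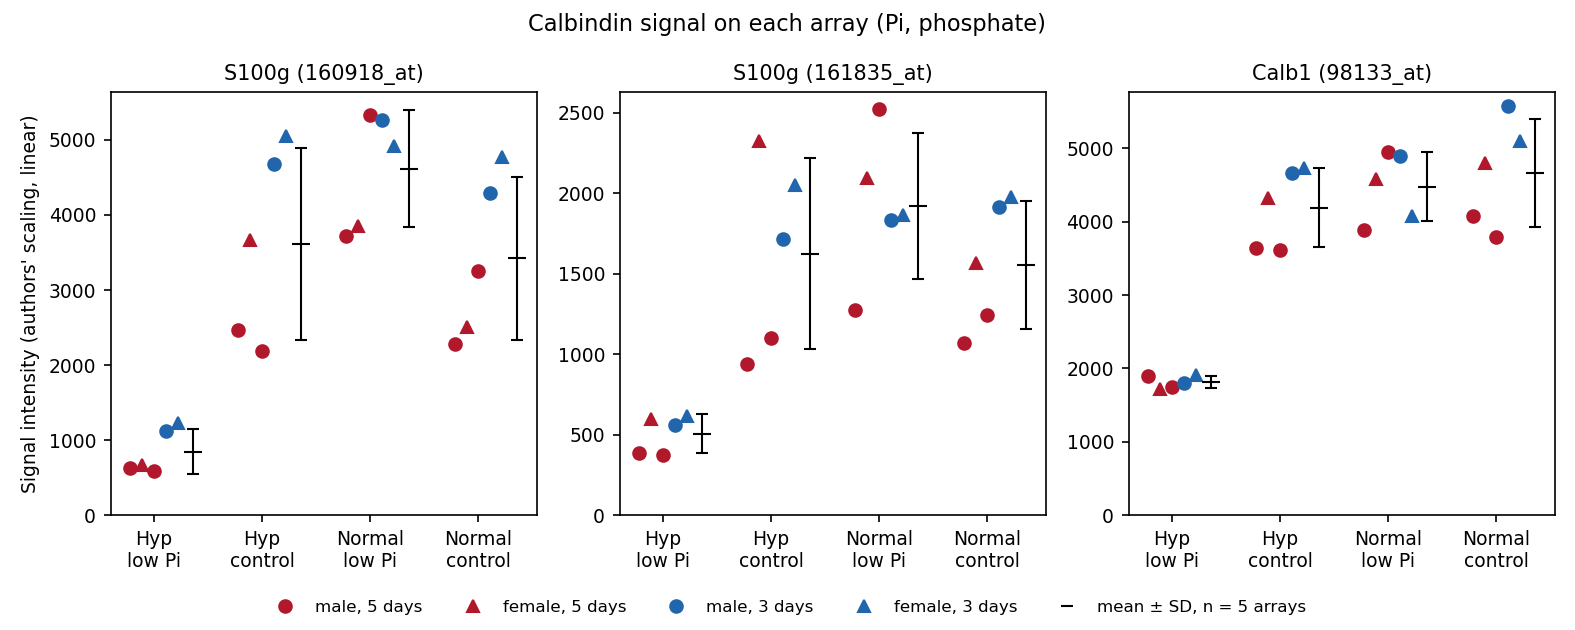
Signal intensity (linear, as deposited by the authors) of the 2 S100g probe sets and the Calb1 probe set on each of the 20 arrays, by group, with circles for males, triangles for females, red for 5 days and blue for 3 days, and the mean ± SD of the 5 arrays in black. The 5 Hyp low phosphate arrays are the lowest of each panel, with 591 to 1224 for S100g 160918_at and 1720.2 to 1912 for Calb1, and the 3-day arrays of S100g 160918_at lie above its 5-day arrays in that group.

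The limma fit over 8695 probe sets gave log2 differences, low phosphate minus control in Hyp mice, of -2.03 ± 0.16 (SE) for S100g 160918_at (adjusted p = 3.78e-06), -1.56 ± 0.18 for S100g 161835_at (adjusted p = 0.000209) and -1.18 ± 0.11 for Calb1 (adjusted p = 1.25e-05). The test called 13 probe sets in this comparison, 0.150% of those tested, and all 3 calbindin probe sets were among them, in places 1, 4 and 2 by p. By size of fall, S100g 160918_at came first of the 8695. The 95% intervals ran from -2.37 to -1.69 for S100g 160918_at, from -1.93 to -1.18 for 161835_at and from -1.40 to -0.96 for Calb1. Ranges that do not overlap between the 2 diets in Hyp mice were found for 0.426% of probe sets, in either direction. An exact two-sided permutation test of 5 against 5 arrays gave p = 0.00794 for each of the 3 probe sets, the smallest value that its 252 splits allow (0.0159 after Benjamini-Hochberg adjustment over 12 such tests).

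Within array sets, where the arrays compared shared a set, sex and duration, the low phosphate array was the lower in 5 of 5 Hyp pairs for every calbindin probe set. All 5 ratios lay below 1 for 3.76% of the probe sets tested. S100g 160918_at was 3.71 to 5.46 times as high on the control array as on its low phosphate partner. For S100g 161835_at the same ratio was 2.43 to 3.86, and for Calb1 it was 1.92 to 2.59. The arrays 08 and 07 pair, from the set that stood apart, gave the widest S100g ratios, 5.46 by 160918_at and 3.86 by 161835_at, and a Calb1 ratio of 2.51. Without that set, S100g and Calb1 kept their calls in Hyp mice.

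In normal mice the same diet gave no call for either gene. S100g 160918_at averaged 4617 ± 777 on low phosphate diet and 3419.7 ± 1086 on control diet (SD, n = 5 each). It had 3717, 3855 and 5336 after 5 days on arrays 02, 06 and 20 and 5261 and 4917 after 3 days on arrays 12 and 16 in normal mice on low phosphate diet. In normal mice on control diet it had 2285.5, 2508 and 3248 after 5 days on arrays 01, 05 and 19 and 4292 and 4765 after 3 days on arrays 11 and 15. The groups overlapped, but each low phosphate array was the higher of its pair within a set, by 1.03 to 1.64 times, in 5 of 5 pairs. Ratios above 1 in all 5 normal pairs were found for 7.13% of probe sets.

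The fit gave S100g 160918_at a log2 difference of 0.47 ± 0.16 (SE, adjusted p = 0.347) in normal mice, with a 95% interval of 0.13 to 0.81. Its unadjusted p was 0.00914, and 744 of the 8695 probe sets had an unadjusted p under 0.05. S100g 161835_at differed by 0.30 (interval -0.07 to 0.67, adjusted p = 0.685) and Calb1 by -0.05 (interval -0.27 to 0.17, adjusted p = 0.951). Of all probe sets, 0.184% were called for diet in normal mice, none of them a calbindin.

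S100g 161835_at averaged 1919.8 ± 453 on low phosphate diet and 1555 ± 399.7 on control diet in normal mice, and Calb1 averaged 4478 ± 476 and 4665 ± 733 in those groups (SD, n = 5 each). Calb1 had 3892, 4575 and 4947 after 5 days and 4895 and 4078.5 after 3 days in normal mice on low phosphate diet, against 4071, 4796 and 3789 after 5 days and 5572 and 5098 after 3 days in normal mice on control diet. The low phosphate array was the lower in 4 of 5 normal pairs for Calb1, and its exception, the pair of arrays 20 and 19, had a ratio of 1.31. That pair also gave the highest ratio for S100g 161835_at, 2.03, where 3 of 5 pairs lay above 1.

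**Figure D2:**
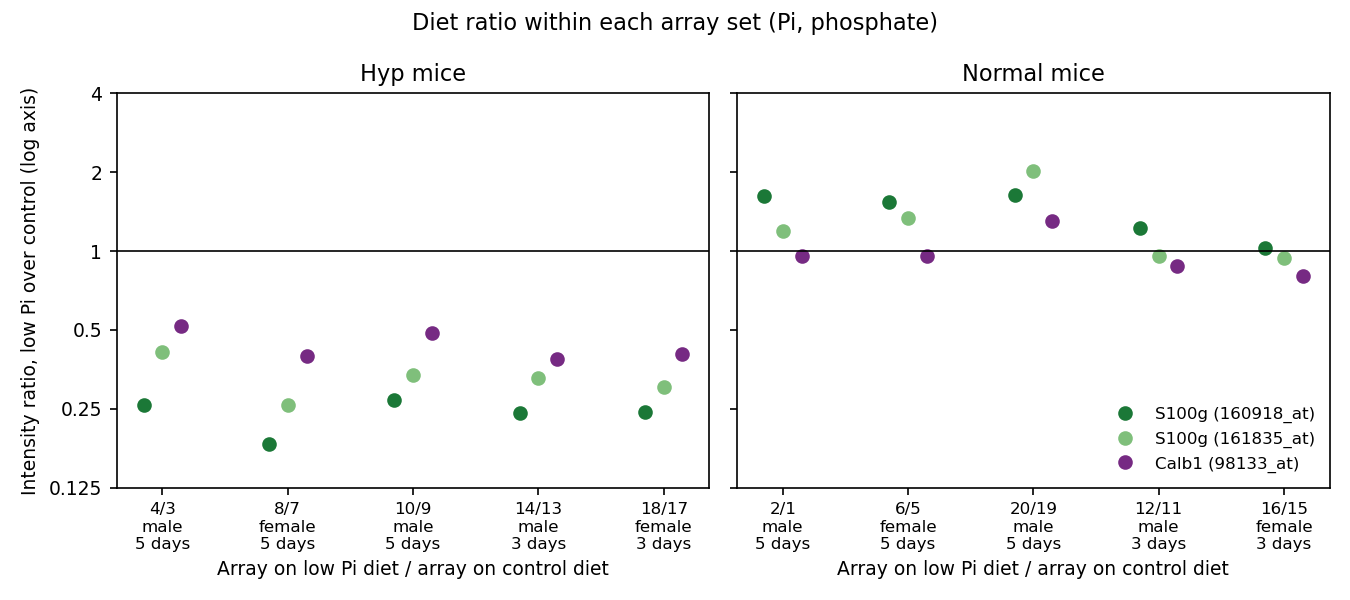
Ratio of the intensity on the low phosphate array to that on the control array of the same set, sex and duration (log axis), for 5 pairs of Hyp arrays and 5 pairs of normal arrays, with 1 point per probe set. All Hyp ratios lie below 1, from 0.183 to 0.270 for S100g 160918_at and from 0.386 to 0.520 for Calb1, and the normal ratios lie between 0.800 and 2.03.

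The response to diet therefore had to be compared between genotypes by its own test. The genotype by diet interaction, the diet difference in Hyp mice minus that in normal mice, was -2.50 ± 0.23 (SE) on the log2 scale for S100g 160918_at (adjusted p = 3.09e-05), -1.86 ± 0.25 for S100g 161835_at (adjusted p = 0.0028) and -1.13 ± 0.15 for Calb1 (adjusted p = 0.0028). Only 4 probe sets of the 8695, 0.0460%, passed this test in limma, and 3 of them were the calbindins. The other was Cyp27b1 (-2.01, adjusted p = 0.0431). At an unadjusted p under 0.05 there were 281. Both S100g and Calb1 passed with any single array left out. Without the whole set of arrays 05 to 08, S100g 160918_at still passed, while S100g 161835_at and Calb1 each had an adjusted p of 0.0686, with differences of -1.75 and -1.10.

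Compared between genotypes on the same diet, the calbindins were lower in Hyp than in normal mice fed low phosphate and did not pass the test on control diet. On low phosphate diet the difference, Hyp minus normal, was -2.44 ± 0.16 (SE) for S100g 160918_at (adjusted p = 1.77e-07), -1.84 ± 0.18 for 161835_at (adjusted p = 1.5e-05) and -1.28 ± 0.11 for Calb1 (adjusted p = 2.5e-06). The test called 31 probe sets here, 0.357%, and the calbindins took places 1, 5 and 3 by p. The normal low phosphate mean was 5.44 times the Hyp low phosphate mean for S100g 160918_at, 3.78 times for 161835_at and 2.47 times for Calb1. No calbindin range overlapped between these groups, as for 0.828% of probe sets. Within the 4 sets that held both genotypes, the Hyp array was lower in 4 of 4 pairs, at 0.171 to 0.249 of the normal array for S100g 160918_at and 0.368 to 0.487 for Calb1.

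On control diet, S100g 160918_at differed between Hyp and normal mice by 0.06 (95% interval -0.28 to 0.40, adjusted p = 0.938), 161835_at by 0.02 (interval -0.35 to 0.39, adjusted p = 0.98) and Calb1 by -0.15 (interval -0.37 to 0.07, adjusted p = 0.711). The means were 3612 ± 1277.5 in Hyp mice and 3419.7 ± 1086 in normal mice for S100g 160918_at, and 4191.5 ± 538 in Hyp mice and 4665 ± 733 in normal mice for Calb1 (SD, n = 5 each). For this comparison 0.253% of probe sets were called, none of them a calbindin. Within sets, Hyp control arrays were at 1.06 to 1.46 of the normal control array for S100g 160918_at, above 1 in 4 of 4. S100g 161835_at ran from 0.876 to 1.48, above 1 in 2 of 4. Calb1 ran from 0.836 to 0.927, below 1 in 4 of 4. The share of all probe sets with 4 of 4 pairs on 1 side was not counted for either diet. The sign of the S100g 160918_at difference was not stable. The difference was -0.06 without arrays 05 to 08, -0.0025 without array 05 and -0.038 without array 07. Ordered by mean, S100g 160918_at ran from Hyp low phosphate through normal control and Hyp control to normal low phosphate, and Calb1 from Hyp low phosphate through Hyp control and normal low phosphate to normal control. In both orders only the step above Hyp low phosphate separated groups whose ranges did not overlap.

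**Figure D3:**
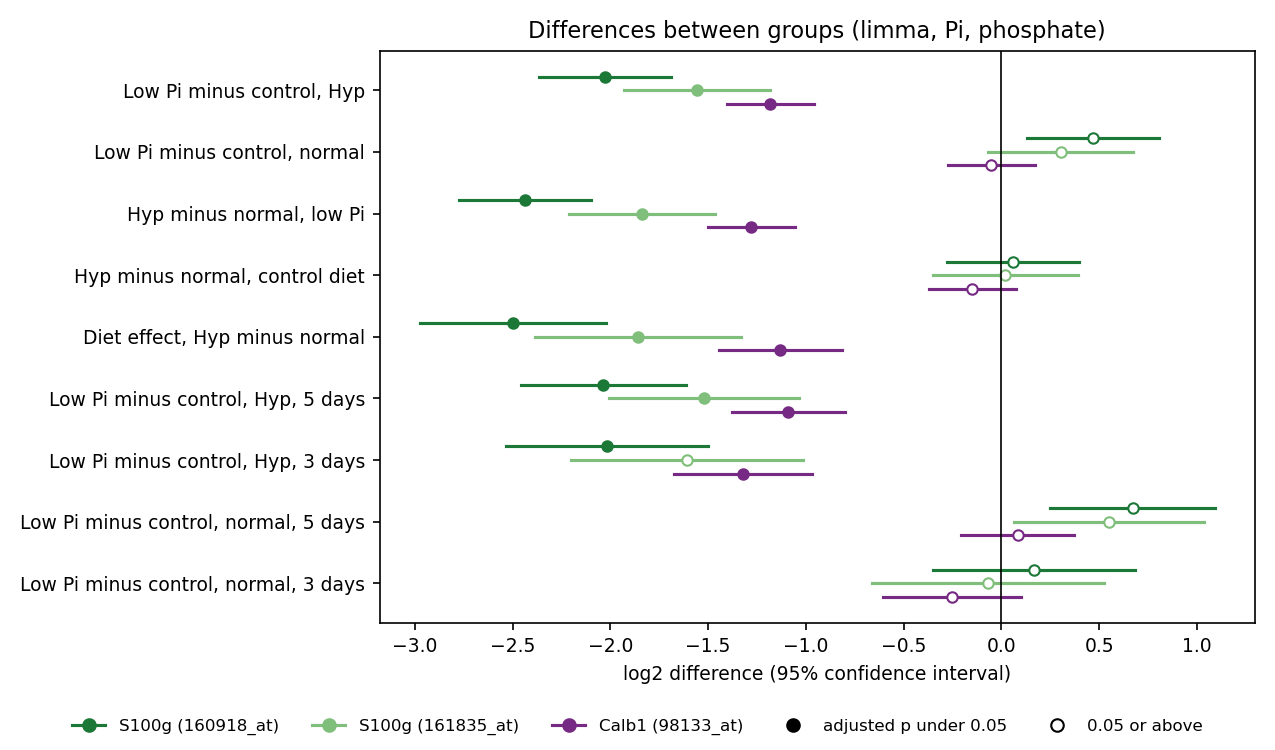
Log2 differences from the limma fits for the 3 calbindin probe sets, with 95% confidence intervals, for diet and genotype comparisons and for diet at 5 and at 3 days. Filled points passed an adjusted p of 0.05. Diet in Hyp mice lies at -2.03 for S100g 160918_at and -1.18 for Calb1, and diet in normal mice at 0.47 and -0.05.

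Days on the diet were compared next. In Hyp mice S100g and Calb1 were already lower on low phosphate diet at 3 days, and no difference in the response between 5 and 3 days was called. At 5 days the diet difference in Hyp mice was -2.04 for S100g 160918_at (adjusted p = 0.000525), -1.52 for 161835_at (adjusted p = 0.0167) and -1.09 for Calb1 (adjusted p = 0.00352), with 3 arrays a group. Of all probe sets 0.0575% were called at 5 days, 5 in number, and 3 were calbindins. At 3 days, with 2 arrays a group, it was -2.02 for S100g 160918_at and -1.32 for Calb1 (adjusted p = 0.00591 each). These were the only 2 probe sets called at 3 days, 0.0230% of those tested, while S100g 161835_at, at -1.61, had an adjusted p of 0.0984, so that the S100g probe sets disagreed in the call and not in the sign. That disagreement depended on the setting: 161835_at passed at 3 days with trend and robust moderation (adjusted p = 0.0418), array weights (0.000808), without arrays 09, 10, 19 and 20 (0.0233), without array 07 (0.0422) and without array 20 (0.00349). In the other refits it did not pass, and its adjusted p reached 0.162 under the alternatives and 0.99998 with 1 array left out.

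The 3-day calls rested on few arrays: leaving out array 13, 14, 17 or 18 raised the adjusted p of S100g 160918_at and of Calb1 above the threshold, to as much as 0.236 and 0.276. At 5 days Calb1 lost its call without array 08 (adjusted p = 0.051) or without arrays 09, 10, 19 and 20 (adjusted p = 0.0699). S100g 161835_at lost its 5-day call without array 04 (adjusted p = 0.0764), 07 (0.151), 08 (0.101), 09 (0.0519) or 10 (0.103). The diet difference at 5 days minus that at 3 days in Hyp mice was -0.02 for S100g 160918_at (95% interval -0.69 to 0.65), 0.09 for 161835_at (interval -0.68 to 0.85) and 0.23 for Calb1 (interval -0.22 to 0.69). None of the 8695 probe sets passed limma's test of that difference, and 234 had an unadjusted p under 0.05.

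In normal mice the diet difference of S100g 160918_at was 0.67 at 5 days (95% interval 0.25 to 1.09, adjusted p = 0.419) and 0.17 at 3 days (interval -0.35 to 0.68, adjusted p = 0.999). S100g 161835_at differed by 0.55 at 5 days (adjusted p = 0.61) and -0.07 at 3 days (adjusted p = 0.999) in normal mice. The S100g probe sets thus differed in sign at 3 days. Calb1 differed by 0.08 at 5 days and -0.25 at 3 days in normal mice, neither of them called. The change of the diet difference between 5 and 3 days in normal mice was 0.50 for S100g 160918_at, 0.62 for 161835_at and 0.34 for Calb1 (adjusted p = 0.9999 each). The genotype by diet interaction was called for S100g 160918_at at 5 days, at -2.71 (adjusted p = 0.00112), as the only probe set of the 8695 (0.0115%). At 3 days it was -2.18 (adjusted p = 0.139), and limma called no probe set (146 with an unadjusted p under 0.05). For S100g 161835_at the interaction was not called, at -2.07 at 5 days (adjusted p = 0.0625) and -1.54 at 3 days (adjusted p = 0.9999). Its 5-day interaction passed with a filter at the median (adjusted p = 0.026), trend and robust moderation (0.0115), without array 02 (0.0361) and without array 20 (0.0201). In the other refits this interaction did not pass, with an adjusted p of up to 0.169 under the alternatives and 0.231 with 1 array left out. For Calb1 the interaction was -1.17 at 5 days (adjusted p = 0.0725) and -1.07 at 3 days (adjusted p = 0.9999). The 5-day interaction minus the 3-day one was -0.52 for S100g 160918_at, -0.53 for 161835_at and -0.10 for Calb1 (adjusted p = 0.999 each).

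The S100g level itself was also compared between durations. S100g 160918_at averaged 633 ± 40.4 at 5 days and 1174 ± 71.3 at 3 days in Hyp mice on low phosphate diet (SD, n = 3 and 2). In Hyp mice on control diet it averaged 2778 ± 786 at 5 days and 4864 ± 265 at 3 days. In normal mice on low phosphate diet it averaged 4303 ± 897 at 5 days and 5089 ± 243 at 3 days, and on control diet 2680.5 ± 504 at 5 days and 4528 ± 335 at 3 days. The mean of 160918_at was lower at 5 days in 4 of 4 groups, though single normal low phosphate arrays overlapped. The mean of 161835_at was higher at 5 days in normal mice on low phosphate diet (1966 ± 634 against 1851 ± 21.3). In the other groups it was lower at 5 days. Averaged over the groups, the difference of 5 from 3 days was -0.66 ± 0.12 (SE, adjusted p = 0.000588) for S100g 160918_at, -0.25 (adjusted p = 0.131) for 161835_at and -0.15 (adjusted p = 0.132) for Calb1. S100g 161835_at passed with array weights (-0.31, adjusted p = 0.0282) and without arrays 09, 10, 19 and 20 (-0.34, adjusted p = 0.00971). This contrast called 40.9% of all probe sets, and since array sets lie within a duration, days and set cannot be told apart.

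Males and females were compared in the same way. Averaged over groups, males minus females gave -0.09 for S100g 160918_at (adjusted p = 0.636), -0.36 for 161835_at (adjusted p = 0.0677) and -0.03 for Calb1 (adjusted p = 0.839), in a contrast that called 16.6% of probe sets. Array sets lie within a sex, and the females at 5 days are the set that stood apart, so sex and set cannot be told apart here. The sex difference of 161835_at passed with a filter at the median (adjusted p = 0.0498), array weights (-0.39, adjusted p = 0.0152) and without arrays 09, 10, 19 and 20 (-0.44, adjusted p = 0.0047). The calbindins were lower on low phosphate diet in Hyp mice of both sexes. In males the difference was -1.91 for S100g 160918_at (adjusted p = 0.00115), -1.41 for 161835_at (adjusted p = 0.0358) and -1.10 for Calb1 (adjusted p = 0.00787), among 0.0460% of probe sets called. In females it was -2.20 (adjusted p = 0.00244), -1.78 (adjusted p = 0.026) and -1.30 (adjusted p = 0.00836) for these probe sets, among 0.0575% called. The male difference minus the female one was 0.28 for S100g 160918_at (95% interval -0.39 to 0.95), 0.37 for 161835_at (interval -0.38 to 1.12) and 0.19 for Calb1 (interval -0.29 to 0.68), with adjusted p-values of 0.9997. No probe set passed that test in limma, and 301 had an unadjusted p under 0.05. In males, without arrays 09, 10, 19 and 20, Calb1 (adjusted p = 0.122) and S100g 161835_at (adjusted p = 0.058) lost their calls. S100g 161835_at also lost its call in males with an offset of 1 (adjusted p = 0.0665) and with no intensity filter (adjusted p = 0.0612).

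The other genes of calcium transport and its hormonal control were set beside the calbindins. Of 19 listed genes, 10 were tested, and in Hyp mice on low phosphate diet 1 fell, 0 rose and 9 did not pass. The median log2 difference of the 10 was 0.01, against 0.00 over all genes tested. The gene that fell was Cyp27b1, which makes active vitamin D. Slc8a1, the exchanger that extrudes calcium, differed by -0.28 (adjusted p = 0.998), Vdr, the vitamin D receptor, by 0.30 (adjusted p = 0.998), and Kl, the klotho gene, whose protein is a co-receptor of the hormone FGF23, by 0.07 (adjusted p = 0.998). Atp2b2 and Stc1 were below the intensity filter. The channels Trpv5 and Trpv6, the calcium pumps Atp2b1 and Atp2b4, Cyp2r1, Casr and Pthlh had no probe set assigned to them alone and were not analysed here.

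Cyp27b1 had intensities of 107.0, 146, 67.4, 64.4 and 58.9 on the Hyp low phosphate arrays 04, 08, 10, 14 and 18. On the Hyp control arrays 03, 07, 09, 13 and 17 it had 209, 224, 271, 159 and 554. The groups did not overlap, but the control values ran widely. Its diet difference in Hyp mice was -1.28 ± 0.24 (SE, adjusted p = 0.0439), and it kept that call when 2 of the 20 arrays were left out in turn and lost it for the other 18. Normal mice averaged 499 ± 131 when fed low phosphate and 280.4 ± 46.6 when fed control diet (SD, n = 5 each), and limma put the difference at 0.73 (adjusted p = 0.333). Its interaction call held with 6 of the 20 arrays left out in turn and was lost with 14, with adjusted p-values of up to 0.148.

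Cyp24a1, which breaks down active vitamin D, had 2682, 1148, 2326, 7158 and 5668 on those Hyp low phosphate arrays and 1765, 823, 1944.5, 1783 and 2366 on the Hyp control arrays. The groups overlapped, and the log2 difference was 0.91 ± 0.32 (SE, adjusted p = 0.897). Between genotypes on low phosphate diet it was higher in Hyp mice, by 2.25 (adjusted p = 0.00197), and Cyp27b1 was lower, by -2.09 (adjusted p = 0.000194), each with any single array left out. Kl was lower too, by -0.54 (adjusted p = 0.0366), a call lost for 13 of the 20 arrays left out. Thus 1 listed gene rose and 2 fell in that comparison. On control diet no listed gene passed, but Cyp24a1 was again higher in Hyp mice, by 1.46 (limma, adjusted p = 0.0895). Its interaction was not called (0.79, adjusted p = 0.9998), so its genotype difference was not shown to depend on diet. Kl on control diet averaged 4605 ± 398 in Hyp mice and 6114 ± 654 in normal mice (SD, n = 5 each). Cyp27b1 differed there by -0.09 (limma, adjusted p = 0.943).

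Other genes of the segments that hold the calbindins were not called. Of 14 listed genes of the distal convoluted and connecting tubule, 8 were tested, and 0 passed limma's test for diet in Hyp mice (1 with an unadjusted p under 0.05). That test called 0.150% of all 8695 probe sets, and 399 had an unadjusted p under 0.05, so 0 calls in so short a list say little. The median difference of the 8 genes was 0.02, with a range of -0.24 to 0.20. Slc12a3, the sodium-chloride cotransporter that defines the distal convoluted tubule, differed by -0.16 (adjusted p = 0.998), Klk1, a kallikrein of the connecting tubule, by -0.24 (adjusted p = 0.998), and Pvalb, parvalbumin, by 0.10 (adjusted p = 0.998). Of 5 markers of these segments, 3 were measured, and their summed intensity ran from 24869 to 33221 on Hyp low phosphate arrays, 28526 to 36485 on Hyp control arrays, 24263 to 31158 on normal low phosphate arrays and 24750.3 to 30739 on normal control arrays. Most of this sum is Klk1, which averaged 20998 over all arrays, against 5698 for Slc12a3 and 2160 for Pvalb. Of the thick ascending limb, 5 of 9 listed genes were tested and 0 passed (0 at an unadjusted p under 0.05), with a median of -0.05.

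No call was made for the other listed calcium-binding proteins of the same structural family. Of 23 other EF-hand genes, 16 were tested and 0 passed limma's test for diet in Hyp mice (0 at an unadjusted p under 0.05). Pvalb belongs to this list as well. Their median was -0.04, and the values ran from -0.37 for S100a5 to 0.24 for Nucb2, so that the smallest calbindin fall, -1.18, lay outside that range. The list does not hold every EF-hand gene on the array. Ncs1, a calcium sensor of that family, was not listed. It differed by 0.74 for diet in Hyp mice (limma, unadjusted p = 0.0115, adjusted p = 0.897). Over 10 lists of cell type markers, 32 of 49 genes were tested and 0 passed for diet in Hyp mice (5 at an unadjusted p under 0.05). Over all 8695 probe sets, limma called 0.150% in this comparison, and 399 had an unadjusted p under 0.05. With so few calls over all probe sets, 0 calls in lists this short say little about the listed genes.

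**Figure D4:**
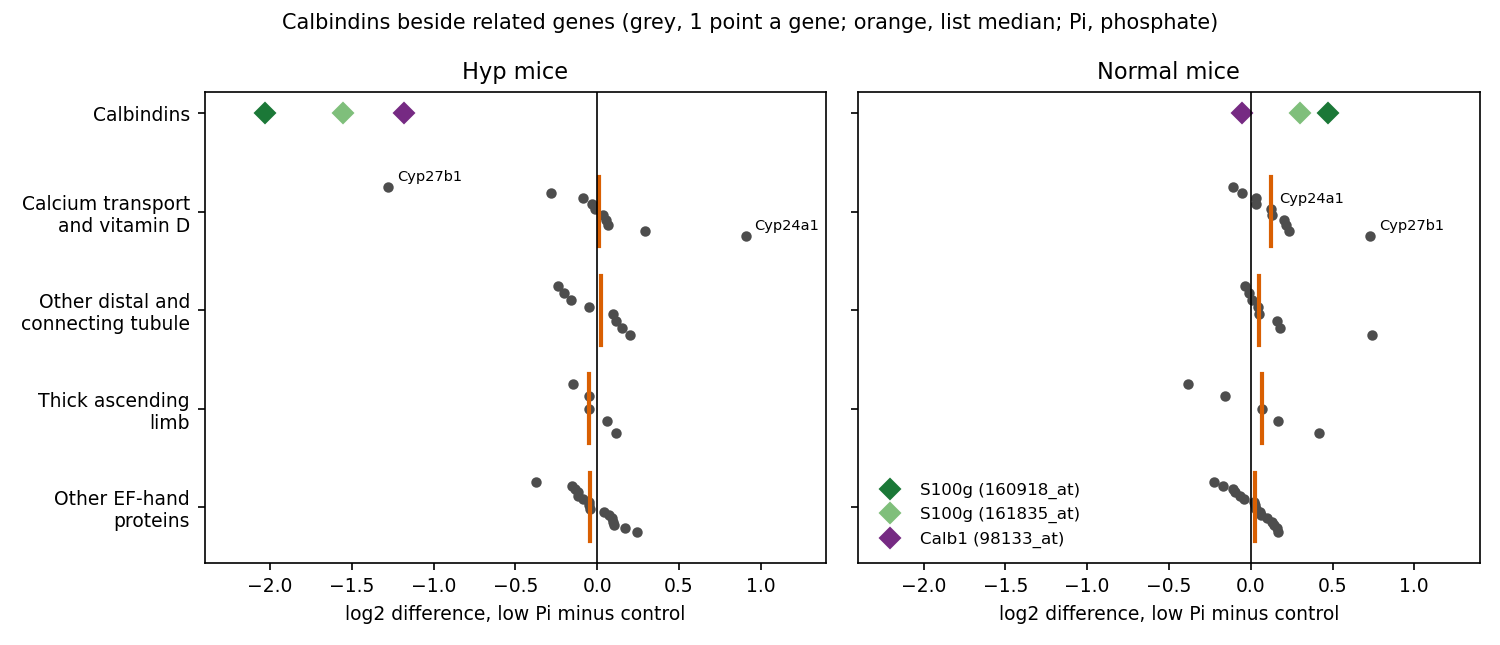
Log2 difference of low phosphate minus control diet in Hyp and in normal mice for the calbindin probe sets (diamonds) and for the tested genes of 4 related lists (grey points, each list's median in orange). In Hyp mice the calbindins lie from -2.03 to -1.18, and the medians of the lists lie between -0.05 and 0.02. Cyp27b1, which was dim on the Hyp low phosphate arrays, lies at -1.28.

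Across all 20 arrays the calbindins followed each other more closely than any other gene followed either of them. The Pearson correlation of log2 values was 0.94 between S100g 160918_at and Calb1, 0.93 between S100g 161835_at and Calb1, and 0.95 between the S100g probe sets. Within the 15 arrays other than Hyp low phosphate these were 0.63, 0.75 and 0.80. The arrays share 4 groups and 6 sets, so these values describe the series and carry no p. Next to Calb1, the genes most like S100g 160918_at were Gsr (0.78), which encodes glutathione reductase, Cdkn1a (0.77), a cell cycle inhibitor, Cyp27b1 (0.77) and Il10rb (0.77), a cytokine receptor chain. For Calb1, after both S100g probe sets, they were Cyp27b1 (0.80), Gsr (0.75) and F3 (0.70), which encodes tissue factor.

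The lowest correlations with S100g were those of Hmox1 (-0.74), which encodes heme oxygenase 1, C2 (-0.74), a complement component, and Ncs1 (-0.73), a neuronal calcium sensor. With Calb1 they were C2 (-0.75), Hmox1 (-0.75) and Cyp24a1 (-0.65). Ranked by Spearman's rho instead, 1 of the top 5 for S100g and 3 of the top 5 for Calb1 stayed, and 0 of the lowest 3 stayed for either, so both orders depend on the measure. Gsr averaged 1381 ± 174 on Hyp low phosphate, 2369 ± 520.4 on Hyp control, 2217 ± 152 on normal low phosphate and 1966 ± 431 on normal control arrays (SD, n = 5 each), and its diet difference in Hyp mice, -0.74, had an adjusted p of 0.097.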

How the data were processed

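Kidney RNA on 20 arrays was analysed, each a pool of 3 mice per the labels. The authors deposited linear signal intensities, 1 for each probe set on each array. Their trimmed mean (2% trimmed at each end), computed here, was nearly equal on every array. The software and background handling are not given in the sources used here. No column of per-sample values was left unused, and no 2 arrays were identical. Control probe sets (66) were set aside. Genes came from the platform annotation, and 10817 of 10833 single-gene probe sets matched RefSeq (GRCm38.p6) by gene number.

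Values were tested as log2(intensity + 38), where 38 is about the 20th percentile of all values, so low intensities give smaller fold changes. Probe sets with a mean at or above the 30th percentile (79.4) were kept, 8695 of 12422, and all 3 calbindin probe sets were kept. limma 3.58.1 in R 4.3.3 fitted the 4 groups with sex, days and their product. Effects at 5 and 3 days and by sex came from fits with group by days or group by sex means. P-values are two-sided, adjusted by Benjamini-Hochberg over 8695 probe sets within each of 19 comparisons, with a threshold of 0.05. They set each difference against the spread between pools that is left after sex and days, an estimate that limma shares in part between probe sets. Array set was not a term in these fits. Where a gene had several probe sets, related lists used the brightest, while both S100g probe sets were reported. The procedure was tested on simulated data. Those data held independent noise and no effects of array set, sex or days, so they do not show how the procedure deals with such effects.

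The members and gene lists were chosen with earlier results of these data known. Likeness was given for the 5 highest and 3 lowest Pearson correlations with the brightest probe set of each calbindin. Alternatives were an offset of 1, quantile normalization, no filter or a filter at the median, trend and robust moderation, no terms for sex and days, array set as a block, array weights, leaving out array set 05 to 08 or arrays 09, 10, 19 and 20, fits to the 2 groups compared alone, the exact permutation test and leaving out each array. The change of the interaction between 5 and 3 days was added after seeing the data.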

Additional observations from a re-analysis of the deposited data

Results flagged for a closer look

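The effect of the low phosphate diet differed between Hyp and normal mice for all 3 calbindin probe sets, by limma's test of the genotype by diet interaction. The difference was -2.50 on the log2 scale for S100g 160918_at (adjusted p = 3.09e-05), -1.86 for S100g 161835_at (adjusted p = 0.0028) and -1.13 for Calb1 98133_at (adjusted p = 0.0028). That test called 0.0460% of all probe sets tested. In Hyp mice the low phosphate array was the lower of 5 of 5 pairs within array sets for each calbindin probe set, as for 3.76% of all probe sets. In normal mice it was the higher of 5 of 5 pairs for S100g 160918_at, as for 7.13% of all probe sets. It was the higher of 3 of 5 for S100g 161835_at and of 1 of 5 for Calb1. No array of any group lay apart from the other 4 of its group for a calbindin by Dixon's test at the 95% level. Each group mixed both durations and both sexes. Where these differ, the range of the group is wider, and the test is less able to single out an array.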

How the results depend on the processing

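For diet in Hyp mice and for genotype on low phosphate diet, the 3 calbindin probe sets kept sign and call under the 12 alternatives and with each of the 20 arrays left out (96 of 96 refits in each comparison). For the S100g 160918_at diet difference in Hyp mice these ran from -2.08 to -1.94 and from -2.12 to -1.93 with 1 array left out, and for Calb1 from -1.22 to -1.15 and from -1.23 to -1.13. Without arrays 05 to 08, the interaction of Calb1 (-1.10, adjusted p = 0.0686) and of S100g 161835_at (-1.75, adjusted p = 0.0686) lost its call, and genotype on control diet turned sign for S100g 160918_at (-0.061) and 161835_at (-0.11). S100g 161835_at also lost its interaction call with no terms for sex and days (adjusted p = 0.0825). With array weights, genotype on control diet turned to -0.031 for S100g 161835_at, diet by days in Hyp mice to 0.023 for S100g 160918_at and genotype by diet by days to 0.018 for Calb1. Without arrays 09, 10, 19 and 20, Calb1 in Hyp mice lost its call at 5 days (-1.12, adjusted p = 0.0699) and in males (-1.14, adjusted p = 0.122), while genotype by diet by days (0.016) and diet in normal mice at 5 days (-0.066) turned sign for Calb1. The interaction at 5 days, -1.17 for Calb1, passed with a filter at the median (adjusted p = 0.0281) and with trend and robust moderation (adjusted p = 0.0115). The interaction at 3 days, -2.18 for S100g 160918_at, passed with trend and robust moderation (adjusted p = 0.0328), array weights (adjusted p = 0.000529) and without arrays 09, 10, 19 and 20 (adjusted p = 0.0261). The cause was not tested.

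With 1 array left out, S100g 160918_at ran from -0.038 to 0.15 for genotype on control diet, -0.16 to 0.22 for diet by days in Hyp mice, -2.30 to -2.07 for the interaction at 3 days and -2.05 to -1.98 for diet in Hyp mice at 3 days. S100g 161835_at ran from -0.087 to 0.12 for genotype on control diet and -0.072 to 0.33 for diet by days in Hyp mice. Calb1 ran from -1.16 to -0.997 for diet in Hyp mice at 5 days, -1.42 to -1.22 at 3 days, -0.12 to 0.014 for diet in normal mice, -0.020 to 0.16 for diet in normal mice at 5 days and -0.23 to 0.023 for genotype by diet by days. The count of 13 probe sets called for diet in Hyp mice ran from 4 to 17 under the alternatives and 6 to 15 with 1 array left out, and the interaction count of 4 from 1 to 6 and 3 to 4. The counts for genotype on low phosphate diet (31), diet in normal mice (16) and genotype on control diet (22) ran from 9 to 67, 3 to 85 and 2 to 56 under the alternatives. The labels give no replicate number shared between groups, so no fit with such a number was made. Array set as a block served in its place, and under it the calbindins kept their side of the threshold for diet, genotype and their interaction.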
